A study of Mus musculus with 14 samples.

Results

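The comparison described here sets the end product of a chemical conversion of mouse fibroblasts beside primary retinal pigment epithelium, the tissue it was meant to match. It uses 5 of the 14 mouse libraries of the study: 3 of treated cells on day 32 (D32) and 2 of primary retinal pigment epithelium (P-RPE). All genes that passed a filter on low counts were tested anew from the deposited counts, 18818 of 55291 symbols. Per the labels, all libraries come from C57BL/6J mice with no other allele named. D32 cells carry the cell type label ciRPE and had embryonic fibroblasts (MEF) as their source. They first passed through the M7 medium, which held basic FGF, CHIR-99021, LDN193189, A 83-01, Hh-Ag1.5, RG108, BMS-345541 and CKI-7, and are labelled with the M3 medium, which held activin A, retinoic acid, nicotinamide and Y27632. P-RPE is labelled as untreated RPE. The tissue entry names embryos of day E13.5 for every library, P-RPE included, and no other age is given for P-RPE. The protocol text says that cells whose induction looked successful were scraped for RNA, so D32 describes picked cells. Nothing in the labels says whether libraries of a group are distinct cultures or animals, so p-values measure the spread between these libraries, which may be technical. The earlier groups, MEF, day 7 (D7) and day 18 (D18), appear below only as levels, and all of them, MEF included, carry the M7 medium as their treatment label.

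The retinal pigment epithelium is a single layer of pigmented cells between the photoreceptors and the vessels of the choroid. It rebuilds the light-sensitive chromophore of the photoreceptors in the visual cycle, engulfs their shed outer segments, moves ions, lactate and water across the layer, and holds melanin made by tyrosinase and its relatives. Its identity is maintained by factors that include Mitf and Otx2, and it borders on photoreceptors, vessels, macrophages and melanocytes of the choroid, whose RNA can accompany it when the tissue is dissected.

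Library totals ran from 35263042 to 41390196 counts, and levels are given in CPM, a gene's counts relative to the library's size (scaled per library by TMM). The biological coefficient of variation was 0.21 within D32 and 0.212 within P-RPE, and the first principal component, with 84.1% of the variance, separated the groups. Mitochondrially encoded mRNAs took 1.43% to 3.33% of the counts at D32 and 1.88% to 2.78% in P-RPE, lowest in D32 replicate 2. Between 69% and 75.6% of counts from 1 to 20 were even numbers, so the mates of a read pair may have been counted separately and a count of 2 can stand for 1 fragment.

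The groups differed across much of the transcriptome. Of the 18818 genes tested, 9787 (52%) passed an adjusted p of 0.05 in edgeR's quasi-likelihood test after Benjamini-Hochberg correction. At D32, 5016 genes (26.7%) were higher and 4771 (25.4%) lower, and 3422 and 3374 of them differed at least 2-fold. For 5944 genes (31.6%) the 95% interval of the difference lay inside 2-fold either way. The median log2 difference over all tested genes was 0.05, and 70.8% of genes had no overlap between the groups' libraries. These shares are the background against which each gene list below is read. Lists are described by their counts and their median, since their members were chosen with earlier results of these data known.

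**Figure D1:**
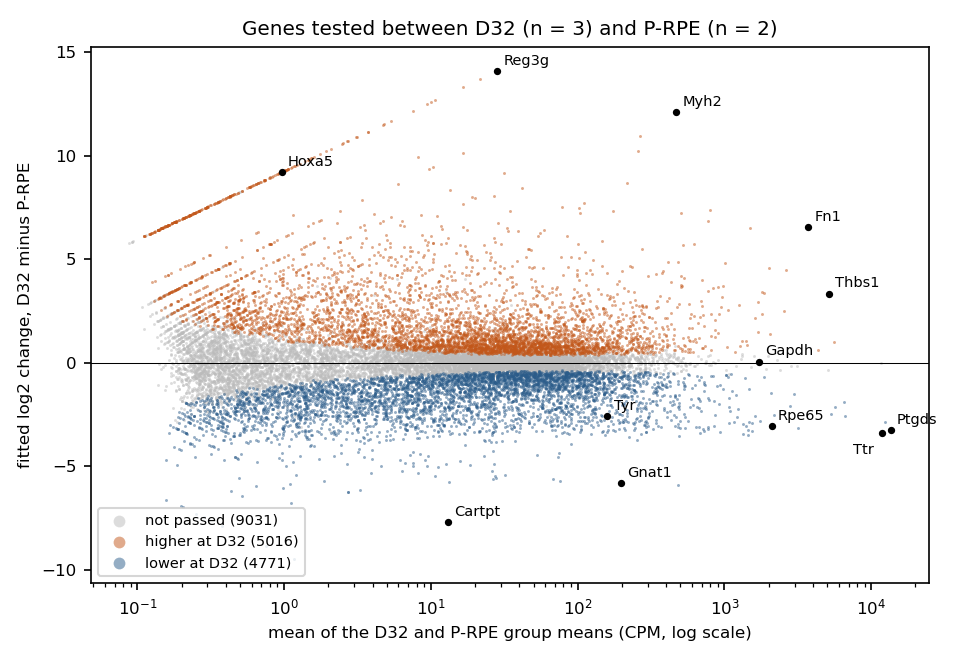
Each point is 1 tested gene, placed by the mean of its 2 group means (CPM, log scale) and its fitted log2 difference, D32 minus P-RPE; orange genes were higher at D32, blue genes lower, and grey genes did not pass. Rpe65 lies at -3.04, Gnat1 at -5.81 and Fn1 at 6.54, and the slanting edge at the upper left is made of genes with 0 counts in P-RPE, whose fitted value depends on the prior count.

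Visual cycle genes were all lower at D32 and all well above 0. Each of the 12 listed genes of retinoid handling was tested, 12 were lower, and their median log2 difference was -3.10. Rpe65, the isomerase that regenerates the chromophore (chr3:159599175-159625321 on GRCm38), was measured at 712, 317 and 334 CPM at D32 and 4414 and 3074 CPM in P-RPE. The highest D32 library thus lay far below the lowest P-RPE library, with a log2 difference of -3.04 (SE 0.37). Lrat, which esterifies retinol to supply Rpe65, was measured at 433, 179.8 and 220.2 CPM at D32 and 3100.2 and 2129.5 CPM in P-RPE. Rlbp1, the retinaldehyde carrier of the layer, was measured at 865, 616 and 439 CPM at D32 and 6085 and 5259.7 CPM in P-RPE. Both again separated the groups without overlap, and in each of the 3 genes D32 replicate 1 was the highest D32 library.

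The remaining members kept the same order of groups. Rgr, an opsin of the pigment epithelium, was measured at 2997, 2018 and 1402 CPM at D32 and 22578 and 20108 CPM in P-RPE, a log2 difference of -3.32 (SE 0.34). Ttr, the carrier of thyroid hormone and of the retinol-binding protein, was measured at 2601, 2074 and 1449 CPM at D32 and 23276 and 20017 CPM in P-RPE, a log2 difference of -3.41 (SE 0.30). Stra6, the receptor that takes up retinol, stood at 8.98% of its P-RPE mean, Rdh5 at 10.2% and Rdh10 at 13.53%. The smallest difference in the list was that of Rdh11, a retinol dehydrogenase found in many tissues, at -1.30. Summed over the list, the D32 libraries reached 14.1%, 9.94% and 7.35% of the P-RPE mean, against a summed level of 312 CPM at D18 and 107 CPM in MEF. Levels of MEF, D7 and D18 here and below are means of 3 libraries on a scale set over all 14 libraries, on which the libraries of D32 and P-RPE change by a factor of 0.951 to 1.01. In bulk RNA, fewer pigment epithelial cells and less RNA per cell cannot be told apart, and whether RNA or tissue of P-RPE reached the D32 libraries was not tested.

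**Figure D2:**
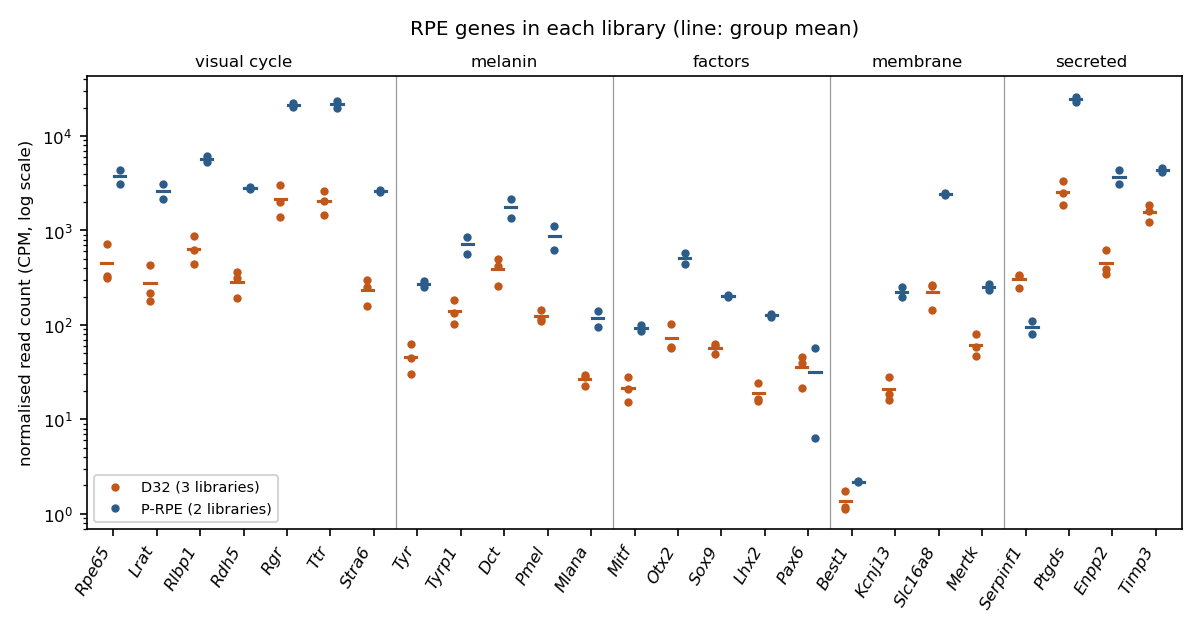
Points are libraries (orange D32, blue P-RPE), lines are group means, and the axis gives normalised read counts (CPM, log scale) for 25 genes of the pigment epithelium grouped by role. Most genes show 3 orange points clear below the 2 blue ones, while Pax6 overlaps and Serpinf1 is higher at D32.

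Melanin genes were also lower at D32, and several of them share a promoter element. The sequences below are the windows from 250 bases before to 50 bases after the start of Tyr, the enzyme that begins melanin synthesis, of its relatives Tyrp1 and Dct, and of Tspan10, a tetraspanin of pigment cells. They are shown because these genes were lower at D32 and hold the TCATGTG element. This element, of the M-box type bound by Mitf and its relatives, is in capitals (CACATGA where it lies on the other strand). The windows are from RefSeq on GRCm38.p6, written 5′ to 3′ along the gene, at chr7:87493463-87493762 (Tyr, minus strand), chr4:80833963-80834262 (Tyrp1, plus strand), chr14:118052197-118052496 (Dct, minus strand), chr11:120442381-120442680 (Tspan10, plus strand).
Tyr: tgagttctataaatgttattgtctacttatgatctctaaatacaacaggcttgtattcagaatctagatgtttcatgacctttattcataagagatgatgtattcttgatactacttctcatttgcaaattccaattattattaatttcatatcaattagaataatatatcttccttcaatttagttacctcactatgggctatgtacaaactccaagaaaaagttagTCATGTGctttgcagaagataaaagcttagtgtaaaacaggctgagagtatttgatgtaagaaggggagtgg
Tyrp1: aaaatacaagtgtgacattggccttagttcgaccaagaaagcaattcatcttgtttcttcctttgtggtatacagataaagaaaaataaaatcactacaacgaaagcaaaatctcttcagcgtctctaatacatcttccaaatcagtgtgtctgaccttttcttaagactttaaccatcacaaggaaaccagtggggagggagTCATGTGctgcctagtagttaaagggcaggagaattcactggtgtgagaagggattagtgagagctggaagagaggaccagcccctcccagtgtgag
Dct: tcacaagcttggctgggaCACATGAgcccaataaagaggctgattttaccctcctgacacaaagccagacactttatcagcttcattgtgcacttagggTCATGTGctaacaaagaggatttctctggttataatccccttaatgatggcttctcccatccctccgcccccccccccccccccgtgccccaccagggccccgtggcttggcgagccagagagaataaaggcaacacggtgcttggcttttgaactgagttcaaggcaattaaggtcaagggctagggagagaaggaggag
Tspan10: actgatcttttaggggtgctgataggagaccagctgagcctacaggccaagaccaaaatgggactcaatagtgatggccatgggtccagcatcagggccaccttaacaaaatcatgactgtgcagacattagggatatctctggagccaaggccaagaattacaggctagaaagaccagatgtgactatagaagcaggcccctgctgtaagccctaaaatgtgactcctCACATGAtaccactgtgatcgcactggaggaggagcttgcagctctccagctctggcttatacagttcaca
Searched on both strands, the element was in 6 of the 11 melanin genes with a window, in 0 of 9 visual cycle genes and in 1 of 13 channel and transporter genes. Over all 32851 windows of this length the share was 3.77%. Counted by gene, as in the lists, it was 2.9% of the 13191 tested genes with a window. A match describes letters in a window and shows no binding.

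Tyr was measured at 62.4, 30.6 and 44.9 CPM at D32 and 295 and 250.4 CPM in P-RPE, a log2 difference of -2.57 (SE 0.27). Tyrp1, which acts later in the pathway, was measured at 183, 102 and 135 CPM at D32 and 570.4 and 855 CPM in P-RPE, and Dct at 501, 259.6 and 425 CPM at D32 and 1369 and 2140.4 CPM in P-RPE. All 3 separated the groups, with D32 replicate 2 the lowest library each time. Of the 16 listed genes of melanin and melanosomes, 14 were lower and none higher, with a median of -2.56. The largest differences were those of the transporter Slc45a2, at -3.36 (SE 0.21), and of Myrip, which links melanosomes to the cytoskeleton, at -3.10 (SE 0.26). Gpnmb, a melanosome and macrophage glycoprotein, was measured at 909, 1029.7 and 759 CPM at D32 and 927 and 1373 CPM in P-RPE and did not pass, with the D32 range overlapping P-RPE. Trpm1, a cation channel of melanocytes and bipolar cells, also did not pass, at 84, 46.3 and 81 CPM at D32 and 87.9 and 250.4 CPM in P-RPE. Its P-RPE replicate 1 lay close to the highest D32 library. Trpm1 passed as lower without that library, at -1.83, and with DESeq2, with a filter of 5 CPM and in a fit of all 14 libraries, at -1.27 to -1.33.

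Several transcription factors of the pigment epithelium were lower at D32. Of 17 listed factors of the pigment epithelium and the eye field, 9 were lower, 2 higher and 6 did not pass, with a median of -1.21. Mitf, which drives pigment genes, was measured at 27.8, 15.2 and 20.9 CPM at D32 and 99.5 and 86.2 CPM in P-RPE, a log2 difference of -2.12 (SE 0.23). Otx2, its partner in the pigment epithelium, was measured at 103, 57.1 and 59 CPM at D32 and 573 and 442 CPM in P-RPE, a log2 difference of -2.80 (SE 0.27). Lhx2 and Six3, factors of the eye field, stood at 15% and 14% of P-RPE, and Crx, a photoreceptor factor, at 3.15%. Higher at D32 were the nuclear receptors Nr2f1 and Nr2f2, by 0.87 (SE 0.20) and 0.75 (SE 0.15), though Nr2f1 did not pass without P-RPE replicate 1 (0.72). The value of Crx was -5.87 without D32 replicate 3 and -4.20 without P-RPE replicate 2. Pax6, the eye-field factor that the pigment layer turns down as it matures, was measured at 39.8, 21.4 and 45.9 CPM at D32 and 6.36 and 56.7 CPM in P-RPE. The D32 libraries lay between the P-RPE libraries, which differed from each other far more than the D32 libraries did, and the difference did not pass. Without P-RPE replicate 2, Pax6 was higher at D32, by 2.48. Rax, Six6 and Otx1 did not pass either. Otx1 was also higher without that library, by 1.75, while Rax was lower without P-RPE replicate 1, by a log2 difference of -1.93, and lower with DESeq2, at -1.21.

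Most membrane proteins of the layer were lower at D32. Among 16 channels, pumps and transporters, 13 were lower and 2 higher, with a median of -2.27. Slc16a8, a lactate carrier of the basolateral membrane, was measured at 260.4, 263 and 143 CPM at D32 and 2507 and 2382 CPM in P-RPE, a log2 difference of -3.46 (SE 0.28). Kcnj13, a potassium channel of the apical membrane, was measured at 27.9, 18.6 and 16.1 CPM at D32 and 252 and 199.96 CPM in P-RPE, a log2 difference of -3.43 (SE 0.24). Both groups separated widely, and the D32 means stood at 9.08% and 9.25% of P-RPE. Opposite in direction was Slc16a3, a lactate carrier of glycolytic cells, at 40.2, 53.5 and 28.2 CPM at D32 and 5.03 and 7.04 CPM in P-RPE and a log2 difference of 2.75 (SE 0.30). The cotransporter Slc12a2 was higher by 0.79 (SE 0.28), and did not pass without D32 replicate 3 (0.48) or without P-RPE replicate 2 (0.61). Best1, the bestrophin channel, was low in both groups, at 1.76, 1.13 and 1.19 CPM at D32 and 2.22 and 2.17 CPM in P-RPE, and did not pass.

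Genes of outer-segment uptake went both ways. Of 11, 5 were lower and 5 higher, with a median of 0.50. Mertk, the receptor kinase that triggers engulfment in this layer, was measured at 79.5, 58.9 and 47.1 CPM at D32 and 273 and 233 CPM in P-RPE, a log2 difference of -2.03 (SE 0.22), and its relative Tyro3 differed by -2.17 (SE 0.17). The third kinase of the family, Axl, was higher, at 510.5, 599.9 and 469 CPM at D32 and 141 and 183 CPM in P-RPE. Both ligands of these kinases were higher as well: Gas6 by 1.92 (SE 0.23) and Pros1 by 2.55 (SE 0.18). Itgb5, the beta chain of the integrin that tethers outer segments, did not pass, at 483, 673 and 440.4 CPM at D32 and 359 and 395 CPM in P-RPE. Of 17 lysosomal hydrolases, 5 were higher, 4 lower and 8 did not pass, shares near those of all genes tested. An interval inside 2-fold was found for 10 of the 17, against 31.6% of all genes tested, and the median was -0.13. Ctsd, the main protease of outer-segment digestion, was lower by a log2 difference of -1.48 (SE 0.22), and Ctsl was higher by 1.59 (SE 0.19).

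Secreted products were likewise divided. In this list of 13, 7 were lower and 5 higher, with a median of -1.30. Enpp2, which makes lysophosphatidic acid, was measured at 628, 346 and 392 CPM at D32 and 4329 and 3083 CPM in P-RPE, a log2 difference of -3.03 (SE 0.30). Col8a2, a collagen of basement layers, differed by -2.58 (SE 0.19), and Vegfa, the factor that maintains choroidal vessels, by -2.13 (SE 0.18). Higher were Efemp1, a fibulin of the matrix below the layer, at 734, 1269 and 1010 CPM at D32 and 40.7 and 78.6 CPM in P-RPE, and Serpinf1, the antiangiogenic factor PEDF, at 244, 339 and 329.8 CPM at D32 and 81 and 111 CPM in P-RPE. Col8a1 was at like levels in both groups, 1629, 1428 and 1376 CPM at D32 and 1342 and 1003 CPM in P-RPE, and did not pass. Ptgds, a prostaglandin synthase and the most abundant gene of both P-RPE libraries, was measured at 3308, 2497 and 1881 CPM at D32 and 26029 and 23024 CPM in P-RPE, a log2 difference of -3.26 (SE 0.30). The iron carrier Trf and the lipid carrier Apoe, abundant products of this layer, stood at 14% and 17% of P-RPE.

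Epithelial genes were mostly lower, with cadherins in both directions. Of 16 genes of junctions, keratins and polarity, 9 were lower and 4 higher, with a median of -1.86. Cdh3 and Cdh1, epithelial cadherins, were measured at 58.5, 64.2 and 44.6 CPM at D32 and 304 and 303 CPM in P-RPE, and at 5.91, 4.64 and 4.6 CPM at D32 and 18.6 and 23.7 CPM in P-RPE. Cdh2, the cadherin of neural and mesenchymal cells, was measured at 165, 128 and 123 CPM at D32 and 34 and 31.4 CPM in P-RPE. No library of one group reached the other for any of the 3. Krt18, a keratin of simple epithelia, differed by -2.78 (SE 0.22) and Crb3, an apical polarity protein, by -3.02 (SE 0.20). Krt19 was higher by 5.61 (SE 0.42) but low, at 9.81, 13.7 and 7.62 CPM at D32 and 0.162 and 0.255 CPM in P-RPE. Rdx, Pard3 and Cldn19 did not pass, and the interval for 2 genes of the list lay inside 2-fold. Without P-RPE replicate 2, Cldn19 was higher at D32, by 1.42.

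Markers of other cells of the eye were lower at D32 together with the pigment epithelial genes. All 14 rod genes were lower, with a median of -5.50, and the summed level was 52.1, 85.4 and 96.3 CPM at D32 and 1372 and 3211 CPM in P-RPE. Gnat1, the rod transducin subunit, was measured at 1.04, 7.8 and 11.8 CPM at D32 and 201 and 569 CPM in P-RPE. The rod sum was higher in P-RPE replicate 2 than in replicate 1, and lowest at D32 in replicate 1. Cartpt, a neuropeptide precursor, was the lowest named gene, at 0.0497, 0.264 and 0.0529 CPM at D32 and 11.6 and 40.2 CPM in P-RPE, and the rod genes Gnat1, Rcvrn, Prph2, Sag, Nrl, Pde6g and Pde6a and the microRNA host Mir124a-1hg were also among the 10 lowest. Sizes in this group rested on single libraries. Gnat1 did not pass with either P-RPE library left out (-6.37 and -4.87), and was -6.44 without D32 replicate 3. Without P-RPE replicate 2 the values of Rcvrn, Prph2, Sag, Nrl, Pde6g, Pde6a and Mir124a-1hg ran from -4.87 to -4.46. Without P-RPE replicate 1 Sag and Mir124a-1hg were -6.24 and -6.05, and without D32 replicate 3 Nrl and Mir124a-1hg were -6.50 and -6.32. Cartpt was -8.90 without D32 replicate 2, -8.34 without P-RPE replicate 1 and -6.55 without P-RPE replicate 2.

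Blood and immune cell genes were lower as well. All 12 macrophage genes were lower, among them Csf1r, the receptor of the macrophage growth factor, at 96.2, 79.6 and 54.5 CPM at D32 and 670.2 and 642 CPM in P-RPE, and the list's D32 sums were 19.98%, 17% and 11.8% of the P-RPE mean. All 7 class II genes were lower, with Cd74 at 63.7, 75.1 and 38.23 CPM at D32 and 310.0 and 352 CPM in P-RPE and D32 sums at 20.3%, 24.6% and 13.1% of P-RPE. Red cell genes included the adult globins Hba-a1, at 31.3, 42.1 and 65.8 CPM at D32 and 342 and 650.5 CPM in P-RPE, and Hbb-bs, at 56.2, 61.6 and 113 CPM at D32 and 466 and 794 CPM in P-RPE. 6 of the 7 tested red cell genes were lower, and their D32 sums were 7.72%, 9.41% and 15.7% of P-RPE. The sums of the same list in MEF, D7 and D18 were 0.464, 0.43 and 0.293 CPM. The embryonic globins Hbb-y, Hbb-bh1 and Hba-x, which mark red cells of early embryos, summed to 0, 0 and 0 CPM at D32 and 0.0541 and 0.255 CPM in P-RPE, beside the embryonic tissue entry of the labels.

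Vessel genes were lower in 11 of 13 cases, with Vwf, the clotting factor of vessel walls, at 42.6, 39.1 and 36.2 CPM at D32 and 259 and 353 CPM in P-RPE, and D32 sums at 35.4%, 41.8% and 28.9% of P-RPE. Sox10, the factor of melanocytes and Schwann cells, was measured at 35.7, 40.9 and 22 CPM at D32 and 323 and 327 CPM in P-RPE, and 6 of 10 genes of that lineage were lower. The myelin gene Mbp did not pass, and P-RPE replicate 1 was far above replicate 2. Mbp was measured at 112, 83.6 and 135 CPM at D32 and 863 and 92.5 CPM in P-RPE, and passed as lower without P-RPE replicate 2 (log2 difference -2.97) and in the fit of all 14 libraries (-2.17). Choroid plexus genes, a few of which the pigment epithelium also expresses, were lower in 5 of 8 cases, with sums at 23.5%, 22% and 19% of P-RPE. Beside these lists, the visual cycle sums of 14.1%, 9.94% and 7.35% were of like size to those of macrophages and red cells. Other lists differed, with D32 means at 3.4% of P-RPE for rods and 35.4% for vessels. Among pigment epithelial lists, the means were 25% for channels and transporters, 28.4% for melanin and 160% for outer-segment uptake. Replicate 1 was the highest D32 library for the visual cycle and macrophage lists, replicate 2 for class II and vessel genes, and replicate 3 for red cells and rods. The part of these other cells in the D32 and P-RPE levels of pigment epithelial genes was not tested.

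**Figure D3:**
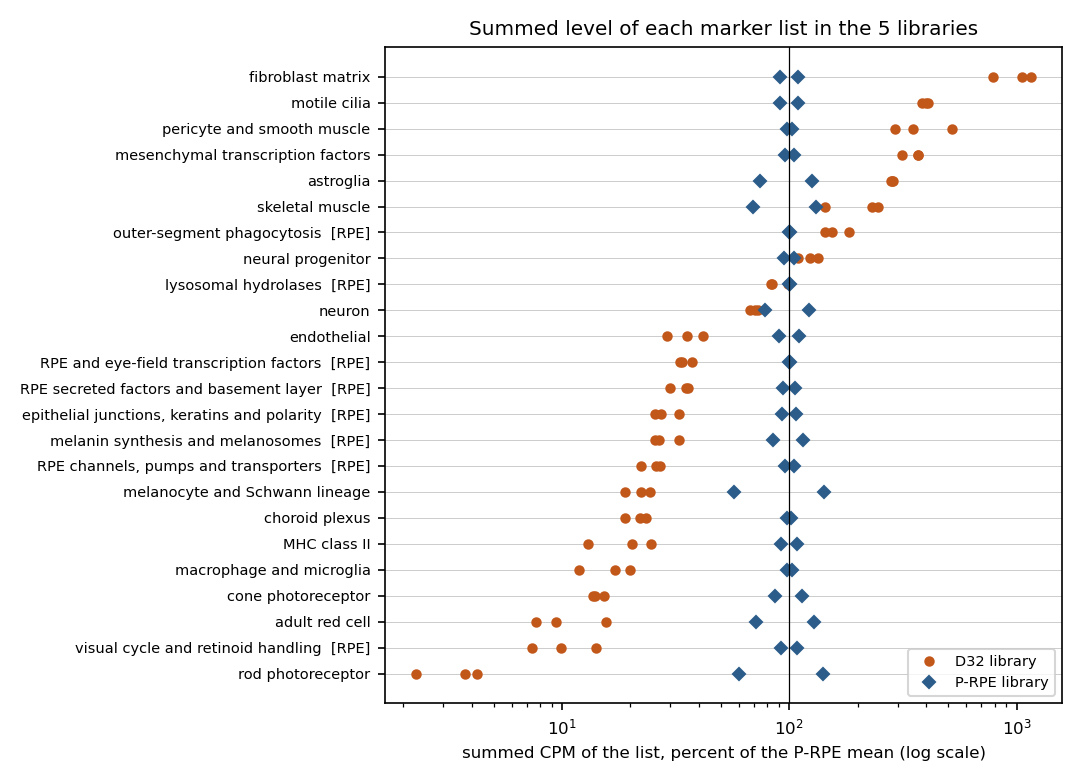
Each row is a marker list, and each point is the summed CPM of the list in 1 library as a percent of the P-RPE mean (log scale), orange for D32 and blue for P-RPE; RPE marks lists of the pigment epithelium. The D32 points of the visual cycle list lie at 14.1%, 9.94% and 7.35% and those of the macrophage list at 19.98%, 17% and 11.8%, rods lie lowest, and fibroblast matrix lies at 788%, 1161% and 1056%.

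A set of genes chosen after the values were seen was low in all earlier groups. 18 genes had at most 1 count in each of the 9 MEF, D7 and D18 libraries and at least 10 CPM in P-RPE. They include Tyr, the cone phosphodiesterase Pde6c, the sulfotransferase Sult1c1, the gut hormone gene Gip, the keratin Krt23 and the adult globins Hbb-bt and Hba-a1. Their level at D32 was a median 15.2% of the P-RPE mean in replicate 1, 10.47% in replicate 2 and 10.2% in replicate 3. Over the 18 genes the D32 mean ran from 7.89% to 17.1%. Gip was measured at 3.4, 2.61 and 1.83 CPM at D32 and 31.9 and 25.3 CPM in P-RPE, and Pde6c at 2.06, 1.63 and 2.38 CPM at D32 and 23.8 and 16.9 CPM in P-RPE. Genes of pigment, red cells, cones and a gut hormone thus stood at like shares of P-RPE. Whether these levels were made by the converted cells or came with RNA or tissue of P-RPE was not tested.

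Sex-linked genes separated the groups as well. Ddx3y, a helicase encoded on the Y chromosome, was measured at 65.1, 8.33 and 56.2 CPM at D32 and 0 and 0 CPM in P-RPE, and Eif2s3y, Kdm5d and Uty were also at 0 counts in both P-RPE libraries. Against a floor of 3 counts over the P-RPE group, Ddx3y was at least 1108-fold higher. All 4 were lowest in D32 replicate 2. Xist, the RNA of the inactive X chromosome, was measured at 170.0, 346 and 142 CPM at D32 and 874 and 601 CPM in P-RPE, highest at D32 in replicate 2. P-RPE thus shows none of these 4 Y-linked RNAs, while D32 shows them and Xist together. Calls of the Y-linked genes ended when single libraries were left out: without D32 replicate 1 none of the 4 passed, with either P-RPE library left out only Kdm5d did, and without D32 replicate 3 Uty did not, with adjusted p in edgeR's quasi-likelihood test from 0.0578 to 0.2. With limma-voom, or with no filter on low counts, none of the 4 passed. The sex of the animals cannot be told apart from the groups in these genes.

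Fibroblast matrix genes formed an abundant group that was higher at D32. 17 of 18 were higher and 1 lower, with a median of 3.80, and the summed level was 26413, 38890 and 35367 CPM at D32, 3048 and 3653 CPM in P-RPE and 34043 CPM in MEF. Fn1, fibronectin, was measured at 5359.8, 8472 and 8326 CPM at D32 and 55.7 and 103 CPM in P-RPE, a log2 difference of 6.54 (SE 0.44). Lox, which crosslinks collagen, was measured at 1595, 1713 and 1426 CPM at D32 and 8.61 and 10.45 CPM in P-RPE, a log2 difference of 7.37 (SE 0.28). The D32 libraries of both lay above every P-RPE library, with means 93.3-fold and 166-fold higher. Col1a1, the main collagen of fibroblasts, was measured at 3648, 6260.5 and 5272 CPM at D32 and 192 and 263 CPM in P-RPE, and Thbs1, a matrix protein and the most abundant gene of D32 replicate 2, at 8794, 10201 and 9110.1 CPM at D32 and 966 and 886 CPM in P-RPE. The exception was Lum, a small proteoglycan, at 97.8, 76.9 and 94.1 CPM at D32 and 162 and 146 CPM in P-RPE.

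Factors and contractile genes of mesenchyme followed. Of 14 mesenchymal factors, 10 were higher and 1 lower, with a median of 1.47. Twist1 was measured at 28.6, 35.8 and 35.3 CPM at D32 and 9.15 and 6.96 CPM in P-RPE, a log2 difference of 2.05 (SE 0.21), and Prrx1, a limb and head mesenchyme factor, differed by 4.28 (SE 0.28). Zeb2 and Snai1 did not pass. In the list of pericytes and smooth muscle, 6 genes were higher and 6 lower. Acta2, smooth muscle actin, was measured at 3135, 4686 and 2402 CPM at D32 and 308 and 341 CPM in P-RPE, and Actg2 differed by 7.34 (SE 0.49). Lower in that list were the pericyte genes Abcc9, at -2.22 (SE 0.18), and Kcnj8, at -1.61 (SE 0.20). Contractile actins and pericyte channels thus went in opposite directions.

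Hox genes, which mark position along the body axis and are not used by the eye, were present at D32 and nearly absent from P-RPE. Of 39 Hox genes, 34 passed the filter and all of these were higher at D32, 29 of them with 0 counts in both P-RPE libraries, so that they passed the filter through D32 alone. The summed level was 56.4, 53 and 56.4 CPM at D32 and 0.704 and 0.586 CPM in P-RPE, against 511 CPM in MEF and 283 CPM at D18. Hoxb8 was measured at 2.23, 3.11 and 3.86 CPM at D32 and 0 and 0 CPM in P-RPE, at least 77.5-fold higher, and Hoxb9 at 3.6, 2.48 and 2.3 CPM at D32 and 0 and 0 CPM in P-RPE, at least 71.4-fold higher. Single Hox genes were low in every D32 library, so the sum is the firmer measure. Hmga2, a chromatin protein of embryonic cells, was measured at 47, 22.3 and 30.5 CPM at D32 and 0 and 0.051 CPM in P-RPE, from 2 counts in P-RPE. The ratio was 1278, with an exact 95% interval of 354 to 10560 for counting error only. That interval takes counts as independent fragments, and is too narrow if mates were counted separately. The fitted log2 difference was 10.14, but 9.26 without P-RPE replicate 1 and 13.31 without P-RPE replicate 2, where P-RPE is at 0 and the value depends on the prior count. The MEF mean was 1023 CPM.

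The named genes with the largest differences upward were of mixed function. Reg3g, a secreted lectin of epithelial defence, was measured at 57.2, 57.8 and 53.9 CPM at D32 and 0 and 0 CPM in P-RPE, at least 1430.2-fold higher than the floor. Reg1, of the same family, was at least 384-fold higher, the growth factor Ereg was measured at 27.3, 12.7 and 24.4 CPM at D32 and 0 and 0 CPM in P-RPE, and the potassium channel Kcnk10 at 21.9, 19.2 and 19.2 CPM at D32 and 0 and 0 CPM in P-RPE. Myh2, a myosin of skeletal muscle fibres, was measured at 1051, 1258 and 494 CPM at D32 and 0.271 and 0.153 CPM in P-RPE, a log2 difference of 12.09 (SE 0.64). It had 14 counts over the MEF libraries, 0 over D7 and 0 over D18, so nearly all of its counts were at D32. Other muscle genes did not share that level. The myogenic factor Myod1 had 0 counts at D32, and of 6 muscle genes tested 2 were higher and 2 lower. Myh1, which lies in the same gene cluster and was looked at after Myh2 had been seen, was measured at 22, 24.23 and 13.2 CPM at D32 and 0.298 and 0.255 CPM in P-RPE. Myh8, also of that cluster, was the listed muscle gene with the largest difference upward, a fitted 6.24. The muscle list, which does not hold Myh2, summed to 25, 26.7 and 15.5 CPM at D32 and 14.2 and 7.47 CPM in P-RPE. Elobl, a relative of the elongin B gene, was measured at 319.6, 557 and 718 CPM at D32 and 0.162 and 0.357 CPM in P-RPE, a log2 difference of 10.97 (SE 0.56), or 11.64 without P-RPE replicate 2.

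Acute phase genes and chemokines were largely higher. Of 13, 10 were higher and 1 lower, with a median of 3.02. Saa3, a serum amyloid protein, was measured at 490.1, 511 and 543 CPM at D32 and 0.325 and 0.51 CPM in P-RPE, a log2 difference of 10.25 (SE 0.30). Lcn2, an iron-binding defence protein, was measured at 402, 474 and 414 CPM at D32 and 0.595 and 1.5 CPM in P-RPE, a log2 difference of 8.66 (SE 0.40), or 9.48 without P-RPE replicate 2. Both were near 0 in P-RPE and close together in the D32 libraries, and their summed list stood at 6554 CPM at D18. Among complement genes, 7 of 14 were higher and 3 lower. C3, the central component, was measured at 967, 1079.6 and 1007 CPM at D32 and 17.1 and 21.7 CPM in P-RPE, and the surface regulator Cd55 differed by 4.41 (SE 0.28). Clu, clusterin, was lower and stood at 23% of P-RPE.

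Glial, progenitor and cilia genes were higher at D32 in part. Gfap, the filament of astrocytes and reactive retinal glia, was measured at 1432, 1709 and 1482 CPM at D32 and 68.4 and 181 CPM in P-RPE, a log2 difference of 3.63 (SE 0.41), with 26579 CPM at D18. Aqp4, a glial water channel, was measured at 226, 155 and 214 CPM at D32 and 1.08 and 6.27 CPM in P-RPE. In P-RPE both were higher in replicate 2, yet still below every D32 library. Without that library the log2 difference was 4.49 for Gfap and 7.51 for Aqp4, which was 4.98 without P-RPE replicate 1. Of 8 astroglial genes 4 were higher and 2 lower, S100b at -2.19 (SE 0.16) and Aldh1l1 at -1.23 (SE 0.14). Of 11 neural progenitor genes 6 were higher and 2 lower, with Sox2 at 18.5, 16 and 17.9 CPM at D32 and 2.54 and 5.81 CPM in P-RPE and a log2 difference of 2.06 (SE 0.33), or 2.77 without P-RPE replicate 2. 12 of 14 genes of motile cilia were higher and none lower, with a median of 3.79. Foxj1, the factor that switches on motile cilia, was measured at 30.1, 45.2 and 34.6 CPM at D32 and 0.947 and 1.4 CPM in P-RPE, and the list's sums were 149, 158 and 155 CPM at D32, 35.4 and 42.2 CPM in P-RPE and 1676 CPM at D18.

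Cell division genes were higher in 25 of 27 cases and lower in none, with a median of 3.65. Mki67, a protein of cycling cells, was measured at 74.8, 52.6 and 60.01 CPM at D32 and 4.38 and 3.26 CPM in P-RPE, a log2 difference of 4.03 (SE 0.24). Cenpf, a kinetochore protein, differed by 5.93 (SE 0.34) and Ccnb1, a mitotic cyclin, by 5.66 (SE 0.33). Pcna, the sliding clamp of replication and repair, did not pass, at 79.5, 68.4 and 71.8 CPM at D32 and 85.2 and 81.1 CPM in P-RPE. The list's sums were 1144, 923 and 821 CPM at D32 and 249 and 251 CPM in P-RPE, against 3082 CPM in MEF and 227 CPM at D18. Inhibitors of the cycle were higher too. Of 12 such genes and targets of p53, 9 were higher and none lower, with a median of 2.00. Cdkn2a, which encodes the proteins INK4a and ARF, was measured at 25, 47.1 and 27.1 CPM at D32 and 0.162 and 0.153 CPM in P-RPE, and its neighbour Cdkn2b differed by 6.39 (SE 0.36). Ccnb1, Cdkn2a and Cdkn2b were thus all above P-RPE in every D32 library. Cdkn1b did not pass, at 79.9, 57 and 89.2 CPM at D32 and 117 and 87.9 CPM in P-RPE.

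Targets of the agents in the second medium were looked at as lists. Over all genes tested, 26.7% were higher, 25.4% lower and 31.6% had an interval inside 2-fold. These shares are the background for the counts below. Of 11 genes that respond to activin or TGF-beta, 8 were higher and none lower, with a median of 1.52. Inhba, which encodes the activin A chain itself, was measured at 109, 60.3 and 61.8 CPM at D32 and 1.03 and 0.816 CPM in P-RPE, a log2 difference of 6.38 (SE 0.38). Smad7, the feedback inhibitor of the pathway, did not pass, at 84.3, 77.7 and 47.8 CPM at D32 and 63.6 and 67.9 CPM in P-RPE. Of 12 genes of retinoic acid, 4 were higher and none lower, and 7 had an interval inside 2-fold. Crabp1, a retinoic acid carrier, was measured at 69.1, 103 and 76.3 CPM at D32 and 0.162 and 0.306 CPM in P-RPE, while Rarb, a direct target, did not pass, at 13.6, 18.9 and 15.1 CPM at D32 and 17.4 and 21.7 CPM in P-RPE. Nicotinamide genes went both ways, 3 higher and 5 lower of 13, and 6 had an interval inside 2-fold. Nnmt, which methylates nicotinamide, was higher by 3.28 (SE 0.27). Of the pathways of the first medium, 0 Wnt targets were higher and 4 lower of 12. Hedgehog targets went both ways, 2 higher and 3 lower of 6. Among the lower was Gli1, at 8.09, 10.8 and 8.97 CPM at D32 and 41.1 and 45.7 CPM in P-RPE. BMP targets were higher in 4 and lower in 1 of 10 cases.

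Immediate early genes, which respond to tissue handling among other stimuli, were mostly lower at D32. Of 14 immediate early genes 12 were lower and 1 higher, with a median of -1.06. Nr4a1 was measured at 191, 221 and 187 CPM at D32 and 696 and 864 CPM in P-RPE and Junb at 367, 464 and 390.0 CPM at D32 and 809 and 1275 CPM in P-RPE, and P-RPE replicate 2 was the higher of the pair for both. Dusp1 did not pass, at 323, 384 and 319 CPM at D32 and 283 and 434 CPM in P-RPE. Heat shock genes went both ways, with Hspa1a lower by a log2 difference of -2.002 (SE 0.25) and Hsph1 higher by 2.65 (SE 0.16). The protocol text says that picked cells were scraped for RNA. How the tissue and the cultures were otherwise handled before lysis is not given in the sources used here. The part of handling in these levels was not tested.

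Genes of energy metabolism went both ways. Among 16 genes of glucose uptake and glycolysis 6 were lower, 3 higher, and 8 had an interval inside 2-fold. Slc2a1, the glucose transporter that carries glucose through this layer to the photoreceptors, was measured at 414, 359 and 299 CPM at D32 and 1785 and 1830.2 CPM in P-RPE, a log2 difference of -2.34 (SE 0.20), and Ldha, lactate dehydrogenase A, was higher, at 513, 704 and 476 CPM at D32 and 194 and 237 CPM in P-RPE. Gapdh did not pass, at 1559.9, 2304 and 1379 CPM at D32 and 1552 and 1819 CPM in P-RPE. Of 18 nuclear genes of the respiratory chain 10 were lower and none higher, with a small median of -0.44. The interval lay inside 2-fold for 12 of the 18, against 31.6% of all genes tested. Ppargc1a, the coactivator that drives mitochondrial genes, was measured at 15.3, 8.02 and 11.1 CPM at D32 and 44.5 and 32.33 CPM in P-RPE. Of 12 mitochondrially encoded genes tested 4 were higher and none lower, with a median of 0.47. Sterol synthesis was higher in 8 of 17 genes and lower in 1, led by Fdps at 3.03 (SE 0.35). Interferon genes were lower in 7 and higher in 1 of 16, and class I genes lower in 6 and higher in 0 of 8, with H2-D1 at 276, 383 and 270.3 CPM at D32 and 683 and 813 CPM in P-RPE.

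**Figure D4:**
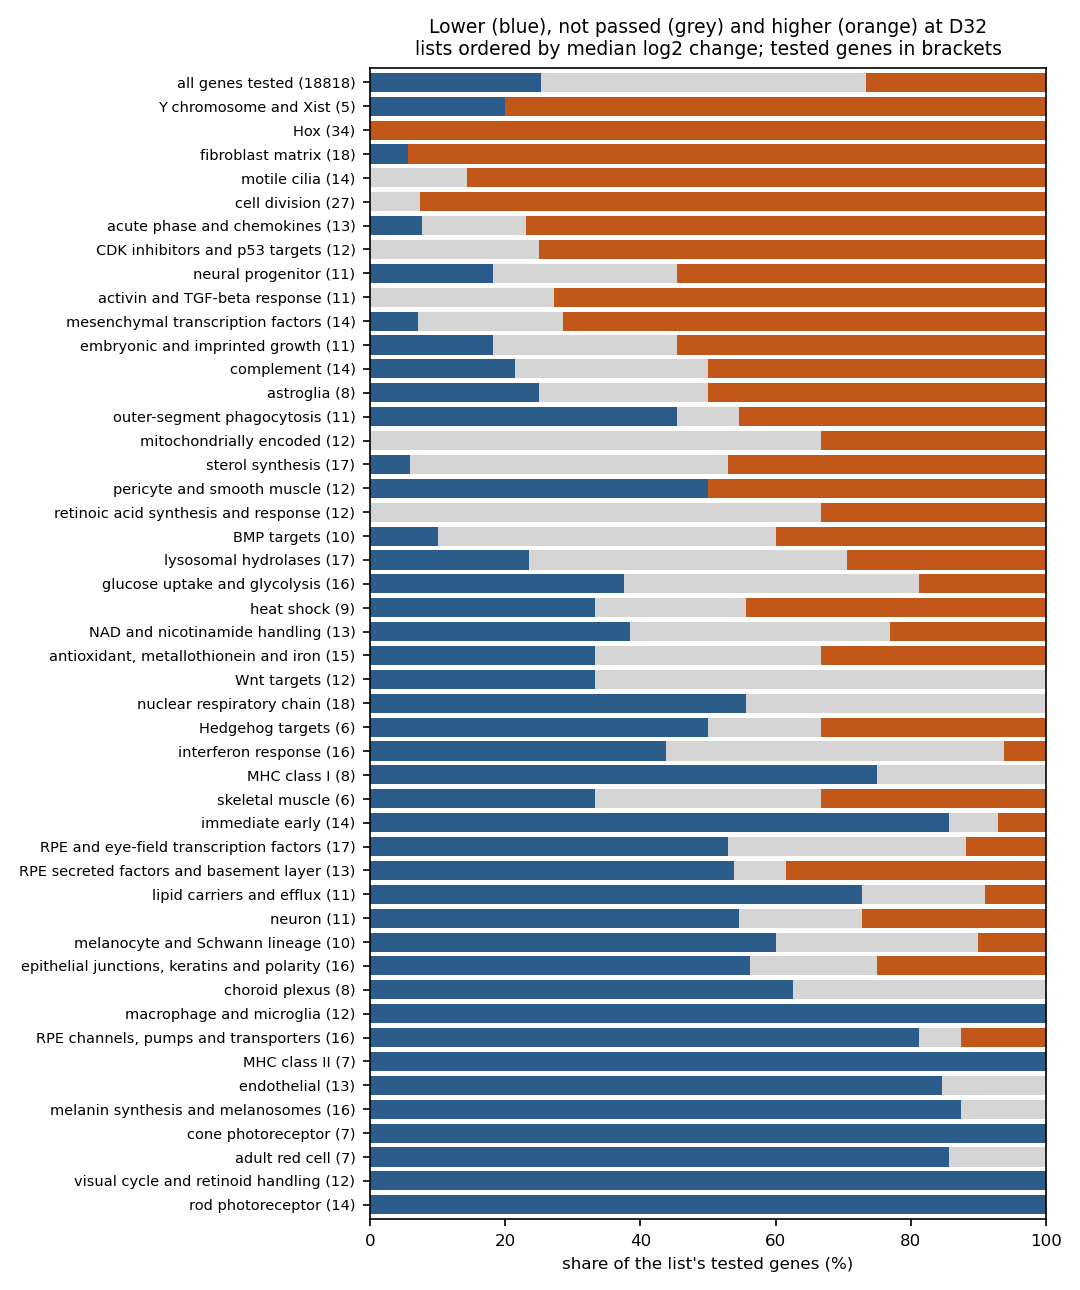
Bars give, for each list with at least 5 tested genes (number in brackets) and for all genes tested, the share lower (blue), not passed (grey) and higher (orange) at D32. Rod, red cell and visual cycle lists are almost wholly blue at the bottom, and Hox, fibroblast matrix, motile cilia and cell division are almost wholly orange. Of the 34 Hox genes tested, 29 had 0 counts in both P-RPE libraries. These passed the filter through D32 alone and could only come out higher. Lysosomal hydrolases have 8 of 17 genes in grey, near the grey share of all genes tested.

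**Figure D5:**
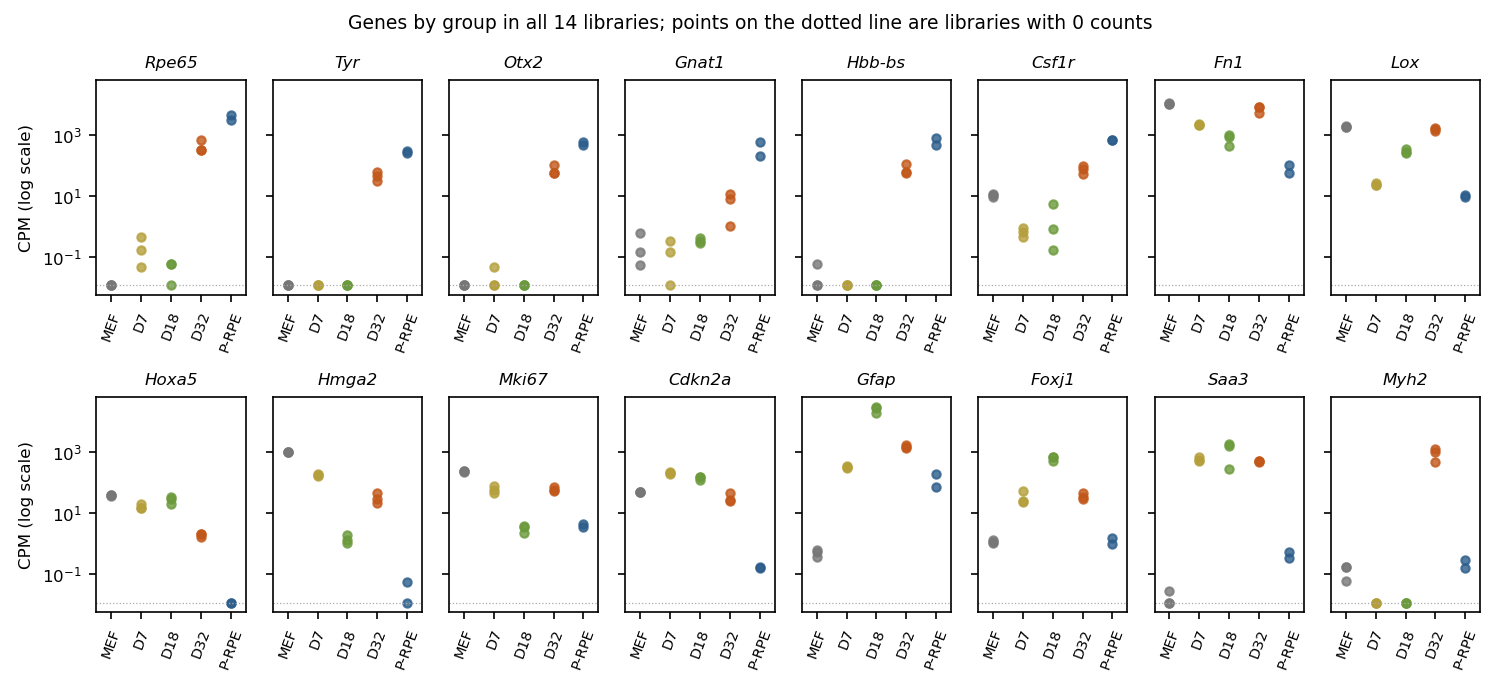
Points are libraries of the 5 groups for 16 genes, as CPM on the scale set over all 14 libraries (log scale), and points on the dotted line had 0 counts. Rpe65, Tyr and Hbb-bs reach intermediate levels at D32 only, Hoxa5 is lower at D32 than in MEF and at 0 in P-RPE, and Myh2 is high at D32 alone.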

How the data were processed

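RNA was sequenced from 14 mouse libraries, of which 3 of D32 and 2 of P-RPE were compared. Per the labels' protocols, total RNA was extracted with TRIzol and both ends were read. The deposited values are counts per gene symbol, whole numbers that the authors did not normalise, as the file itself shows. The submitters' processing notes list featureCounts, STAR 2.7.11a, limma 3.58.1 and edgeR 4.0.16 with the builds mm10, GRCm38 and GRCh38, and the strand setting is not given in the sources used here, so overlapping and near-identical genes are uncertain. Groups came from the sample titles.

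Counts were tested with edgeR 4.0.16 in R 4.3.3: filterByExpr, TMM scaling and a robust quasi-likelihood fit of the 2 groups alone, with Benjamini-Hochberg adjustment over all 18818 genes and a threshold of 0.05. The SE of a log2 difference was taken as its absolute value divided by the root of F. A gene with 0 counts in a group was set against a floor of 3 counts over that group, which, like the exact intervals, covers counting error only. Both take counts as independent fragments. If mates were counted separately, the intervals are too narrow and the folds given as "at least" are too high. With 3 libraries against 2, an exact permutation test of 1 value cannot go below 0.2 and none is given. The scripts were tested on simulated data.

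Genes were named by rule: the 10 called genes highest and 10 lowest in log2 difference (10 CPM or more in the group with more, groups not overlapping), 26 lineage genes, the most abundant gene of each library, and for each list the 2 called members with the largest difference each way and the most abundant one that did not pass. Genes outside this rule, among them several named for their role, were chosen after their values were seen. Some genes that the rule names are not reported here. The comparison, the 50 lists and their members were chosen with earlier results of these data known. Alternatives were RLE scaling, library totals, other filters, DESeq2 1.42.0, limma-voom 3.58.1, a fit of all 14 libraries, the replicate number as a block, and leaving out each library. Halved counts were added after seeing the data. The human table, with 10 columns, was not used here.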

Additional observations from a re-analysis of the deposited data

How the results depend on the processing

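Over the alternatives, the counts of genes higher, lower and within 2-fold stayed within 1.5 times of 5016, 4771 and 5944. With 1 library left out they ran from 3831 to 5145, 3687 to 5065 and 4333 to 5967. The counts of higher and of within 2-fold genes were lowest without P-RPE replicate 1, and that of lower genes without P-RPE replicate 2. Library totals as the scale moved the median log2 difference of all genes from 0.05 to 0.21 and gave 5949 higher and 3996 lower genes. DESeq2 gave 5136 and 4826, limma-voom 4993 and 4954, and halved counts 4842 and 4692. The groups share only replicate numbers 1 and 2, and deviations of same-numbered libraries correlated at 0.111 and 0.067 across genes. On the second principal component, with 6.29% of the variance, replicate 1 lay at 30.4 at D32 and 28.2 in P-RPE. Replicate 2 lay at -38.3 at D32 and -29.9 in P-RPE, and D32 replicate 3 at 9.65. Whether the replicate numbers mark a shared batch was not tested. With the replicate block, 5239 genes were higher, 5025 lower and 6367 within 2-fold.

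Of 154 named genes, 133 passed and 11 of these missed the threshold under at least 1 alternative. Outside the left-out libraries and the block, these were Ddx3y, Eif2s3y, Gnat1, Kdm5d and Uty without a filter, Ddx3y, Eif2s3y, Kdm5d and Uty with limma-voom, Slc12a2 with the stricter filter and Lum in the fit of 14 libraries. With the block, Aqp4, Dct and Xist did not pass. Some genes that had not passed did so under an alternative, listed here outside the fits without a P-RPE library. These were Cdkn1b and Snai1 without a filter, and Cdkn1b, Mbp, Pard3 and Trpm1 in the fit of 14 libraries. With the block they were Cdkn1b, Itgb5 and Snai1, and with library totals Itgb5 and Zeb2. Rax and Trpm1 passed with DESeq2, Snai1 without D32 replicate 3 and Trpm1 with the stricter filter. Fits without a P-RPE library also changed Cldn19, Mbp, Otx1, Pax6, Rax and Trpm1, as described above. Signs turned only among genes that had not passed: with limma-voom in Cldn19 (0.001) and Otx1 (0.31), with library totals in Dusp1 (0.087), Otx1 (0.064) and Rdx (0.069), with the replicate block in Dusp1 (0.006) and Otx1 (0.037), with all 14 libraries in Gapdh (-0.010). With 1 library left out, the log2 differences of genes that turned sign ranged as follows: Cldn19 (-1.13 to 1.42), Dusp1 (-0.34 to 0.27), Gapdh (-0.20 to 0.20), Mbp (-2.97 to 0.25), Otx1 (-0.89 to 1.75), Pax6 (-0.67 to 2.48), Rax (-1.93 to 0.33), Rdx (-0.26 to 0.053), Six6 (-1.32 to 1.23) and Smad7 (-0.063 to 0.31). The cause was not tested. Summed levels of 25 marker lists kept their direction in all 175 pairs of list and alternative run, 26 of which moved a sum by more than the spread between D32 libraries. A count of 1 was worth 0.0248 to 0.0271 CPM, which limits what can be seen of genes near that level.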

Other observations

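Growth genes of the embryo and neuronal genes were not described above. Of 11 tested embryonic and imprinted growth genes, 6 were higher at D32 and 2 lower, with a median log2 difference of 1.13 beside 0.05 over all genes. H19, an imprinted RNA of embryonic tissues, was measured at 81.6, 95.5 and 102 CPM at D32 and 3.57 and 4.26 CPM in P-RPE, and the zinc finger gene Plagl1 at 332, 317 and 505 CPM at D32 and 13.48 and 22.3 CPM in P-RPE. Igf2bp1, an RNA-binding protein, was lower, at 9.14, 6.04 and 5.85 CPM at D32 and 36.1 and 35.4 CPM in P-RPE. Lin28b had 0 counts at D32.

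Neuronal genes were higher in 3 and lower in 6 of 11 cases. Stmn2, a microtubule regulator of growing axons, was measured at 64.1, 66.6 and 67.3 CPM at D32 and 5.63 and 4.9 CPM in P-RPE, while the synaptic gene Syt1 was lower, at 8.74, 5.8 and 5.34 CPM at D32 and 59.5 and 55.8 CPM in P-RPE. Among iron and stress genes, Hmox1, which degrades haem, was measured at 235, 374 and 265 CPM at D32 and 30.9 and 38.3 CPM in P-RPE, and the metallothionein Mt1 at 479, 601 and 435 CPM at D32 and 1735 and 1551 CPM in P-RPE. Lipid carriers and efflux genes were lower in 8 of 11 cases, with Elovl2, which extends polyunsaturated fatty acids, at 10.8, 6.01 and 4.34 CPM at D32 and 69.6 and 56.3 CPM in P-RPE and Abca4, a retinoid flippase, at 192, 119 and 110.2 CPM at D32 and 1008 and 965 CPM in P-RPE. Lpl, a lipase, was higher, at 63.7, 38.23 and 45.5 CPM at D32 and 16.1 and 22.1 CPM in P-RPE.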
